A study of Mus musculus with 16 samples.

Results

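MHC class I genes were examined as a set of 10 genes, 9 heavy-chain or heavy-chain-like genes (H2-K1, H2-D1, H2-Q4, H2-Q6, H2-Q7, H2-T22, H2-T23, H2-M3 and Gm8909) and the light-chain gene B2m, out of 49568 gene symbols counted. The members were taken by symbol, and all 10 were found. Gm8909 and H2-Q7 were chosen by their counts in C57 against MRL libraries, so their values between strains are described and not tested. Bulk RNA-seq had been performed on flexor tendons of young adult male mice of the inbred strains C57BL/6J (C57), an ordinary healer, and MRL/MpJ (MRL), a strain known for improved healing. The 4 groups of 4 libraries were uninjured C57 tendons, C57 tendons at 7 days post-injury (dpi), uninjured MRL tendons and MRL tendons at 7 dpi. Injury was a cut through part of the width of a deep flexor tendon in a hind paw digit, and the labels give no genotype or treatment beyond strain and injury. RNA came from single tendons with the sheath and peritendinous tissue left on, so cells other than tendon fibroblasts could contribute. In bulk RNA, more cells of a type and more RNA per cell cannot be told apart. The labels do not tie libraries to animals, while the study's methods give the animal as the replicate.

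Class I molecules sit on the surface of nearly all nucleated cells. A polymorphic heavy chain pairs with beta-2 microglobulin and holds a peptide from the cell's own proteins, which is read by CD8 T cells and by inhibitory receptors on natural killer cells. Peptides are cut by the proteasome, moved into the endoplasmic reticulum by TAP and loaded there, and interferons raise many genes of this pathway. The heavy-chain genes lie in the H2 complex, and the inbred strains differ there: C57BL/6J carries the H2-b haplotype and MRL/MpJ the H2-k haplotype. The reads were aligned to the C57BL/6J reference, so haplotype differences between the strains may bias mapping. A difference in RNA level and a difference in mapping cannot be told apart for the heavy chains between strains. B2m lies outside the H2 complex. A comparison of injured with uninjured tendons of one strain is meant to set the same alleles side by side, but with all libraries each uninjured group holds a library, labelled replicate 4, whose strain-specific counts go against its label.

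All 9 heavy-chain genes are annotated as protein coding on chromosome 17 of GRCm38, and B2m on chromosome 2. H2-K1, a classical heavy chain, spans chr17:33996017-34000347 on the minus strand, and H2-D1, the other classical heavy chain of C57 mice, spans chr17:35262730-35267499 on the plus strand. The Qa-region genes follow on the plus strand, with H2-Q7, which encodes the lipid-anchored Qa-2 antigen, at chr17:35439155-35443773. Gm8909, a gene model of the distal class I region, spans chr17:36164443-36168537 on the minus strand. B2m spans chr2:122147686-122153083 on the plus strand. The promoter windows below are printed to show which motif letters the genes share upstream. Each is the 250 bases before the RefSeq start (GRCm38.p6), and capitals mark matches on either strand to a kappa B site (GGGNNTTNCC), the core of an interferon-stimulated response element (GAAANNGAAA) or a CCAAT box (CCAAT).
H2-K1: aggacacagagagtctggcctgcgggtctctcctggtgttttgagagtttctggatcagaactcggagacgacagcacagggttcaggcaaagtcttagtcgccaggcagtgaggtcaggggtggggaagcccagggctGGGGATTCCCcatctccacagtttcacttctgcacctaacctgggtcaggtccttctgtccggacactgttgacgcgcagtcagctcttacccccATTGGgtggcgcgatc
H2-D1: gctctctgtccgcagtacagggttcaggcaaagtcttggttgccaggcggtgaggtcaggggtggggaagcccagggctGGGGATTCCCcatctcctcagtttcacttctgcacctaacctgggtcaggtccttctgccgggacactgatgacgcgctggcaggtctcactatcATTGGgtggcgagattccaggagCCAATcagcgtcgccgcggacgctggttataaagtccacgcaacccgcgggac
H2-Q7: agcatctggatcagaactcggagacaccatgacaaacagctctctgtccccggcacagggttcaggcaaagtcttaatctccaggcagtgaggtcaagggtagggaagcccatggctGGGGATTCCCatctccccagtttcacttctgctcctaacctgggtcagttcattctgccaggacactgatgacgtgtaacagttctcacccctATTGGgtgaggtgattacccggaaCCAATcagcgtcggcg
Gm8909: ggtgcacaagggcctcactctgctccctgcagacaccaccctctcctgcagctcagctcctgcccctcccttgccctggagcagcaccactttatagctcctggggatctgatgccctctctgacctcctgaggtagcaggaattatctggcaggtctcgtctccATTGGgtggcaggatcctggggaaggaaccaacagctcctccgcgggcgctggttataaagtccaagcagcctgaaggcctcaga
B2m: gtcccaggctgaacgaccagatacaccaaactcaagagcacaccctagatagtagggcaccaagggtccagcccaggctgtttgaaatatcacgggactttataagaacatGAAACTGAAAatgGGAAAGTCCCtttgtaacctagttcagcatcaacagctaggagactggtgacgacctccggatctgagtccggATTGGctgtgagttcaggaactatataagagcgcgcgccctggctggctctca
These windows lie at chr17:34000348-34000597 (H2-K1), chr17:35262844-35263093 (H2-D1), chr17:35438905-35439154 (H2-Q7), chr17:36168538-36168787 (Gm8909) and chr2:122147437-122147686 (B2m). A kappa B match stood in 6 of the 10 members' windows against 4% of 27025 mouse promoters. The H2-K1, H2-D1 and H2-Q7 windows held the same 10 letters, GGGGATTCCC, while B2m held GGAAAGTCCC, a match on the other strand. The interferon element core was found in 3 of 10 windows, those of H2-T22, H2-T23 and B2m, against 3.04% of promoters. Only this exact pattern was searched, so windows without a match may hold other forms of the element. A CCAAT box was in all 10 windows and in 34.5% of promoters. The Gm8909 window held a CCAAT box and neither of the other motifs. A match describes letters in a window and is not a shown binding site.

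Reads can be shared within the family. Of all 100-base windows of the annotated transcripts, 0.957% for H2-K1 and 3.59% for H2-D1 were identical to a window of another gene. For the Qa genes the share was 14.1% (H2-Q4), 13% (H2-Q6) and 12% (H2-Q7), mostly with each other, with H2-Q10 and with gene models nearby. Gm8909 shared 15.3% of its windows, 13.1% of all its windows being shared with Gm20478. H2-T22 shared 31.5% of its windows, 24% of all its windows being shared with A930015D03Rik, and the strand setting of the counting is not given in the sources used here. H2-M3 and B2m shared 0%. By sharing within the reference alone, counts of the Qa genes, H2-T22 and Gm8909 are less certain than those of H2-K1, H2-D1, H2-M3 and B2m. These shares do not measure how reads of the MRL haplotype map, which stays unknown for H2-K1 and H2-D1 too.

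The libraries held 12552424 to 23741648 counts, with injured MRL libraries the deepest at 18524170 or more. Levels are CPM (counts scaled to a common library size after TMM correction), and 3 counts corresponded to 0.128 to 0.237 CPM. The 8 tendon markers summed to between 16661 and 74411 CPM in every library. A pair of libraries went against their labels. For 5 genes outside chromosome 17 that were counted in all injured MRL and at 0 in all injured C57 libraries, the library labelled uninjured C57 replicate 4 had 4 over 3 counts, while the other uninjured C57 libraries had 0 or 1. The library labelled uninjured MRL replicate 4 had 0 of these 5, while the other uninjured MRL libraries had 4 or 5. For 3 genes with the opposite pattern, the counts over 3 numbered 0 of 3 and 3 of 3 in these libraries. The library labelled uninjured C57 replicate 4 also carried 84568 CPM of epidermal markers, and replicate 1 of the injured C57 tendons 65500 CPM of skeletal muscle markers. Samples were kept in their labelled groups, and results that involve uninjured tendons are given with all libraries and, for the values the text leads with, without both libraries labelled replicate 4, an alternative chosen after seeing the data.

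Apart from the libraries labelled replicate 4, H2-K1 lay higher and H2-D1 lower in uninjured MRL than in uninjured C57 tendons. H2-K1 stood at 155, 138 and 161 CPM in uninjured C57 replicates 1 to 3 and at 422, 421 and 371 CPM in uninjured MRL replicates 1 to 3. The libraries labelled replicate 4 reversed this order, with 275 CPM for C57 and 125 CPM for MRL. H2-D1 stood at 1502, 1522 and 1788 CPM in uninjured C57 replicates 1 to 3 and at 517, 561 and 477 CPM in uninjured MRL replicates 1 to 3, and again the replicate 4 libraries were crossed, at 272 CPM for C57 and 1411 CPM for MRL. With all libraries, edgeR's quasi-likelihood test gave a log2 fold change (MRL minus C57) of 0.85 ± 0.38 (SE) for H2-K1 (adjusted p = 0.631) and -0.78 ± 0.56 for H2-D1 (adjusted p = 0.736). Without both replicate 4 libraries, H2-K1 was 2.65-fold higher in uninjured MRL tendons (log2 fold change 1.41 ± 0.11, edgeR adjusted p = 7.73e-05). H2-D1 was lower (log2 fold change -1.64 ± 0.11, edgeR adjusted p = 2.53e-05), and for both genes the groups of 3 did not overlap.

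With all libraries, 0 of the 7 members tested between uninjured strains passed the call, an adjusted p under 0.05 together with a log2 fold change beyond 1 either way. The same held for 0 of 14055 genes (0%), although 1106 of them, and 0 of the 7 members, had an unadjusted p under 0.05. DESeq2 called 0 members there too, against 0.455% of genes. Without both replicate 4 libraries, 2 of 7 members tested passed, against 3.48% of all genes tested. The other 5 had log2 fold changes from 0.00 (B2m) to 0.90 (H2-Q4), and their adjusted p-values ran from 0.318 to 0.998. Leaving out only the C57 or only the MRL replicate 4 library gave 0 members called, against 0.0137% and 0.0204% of genes.

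**Figure D1:**
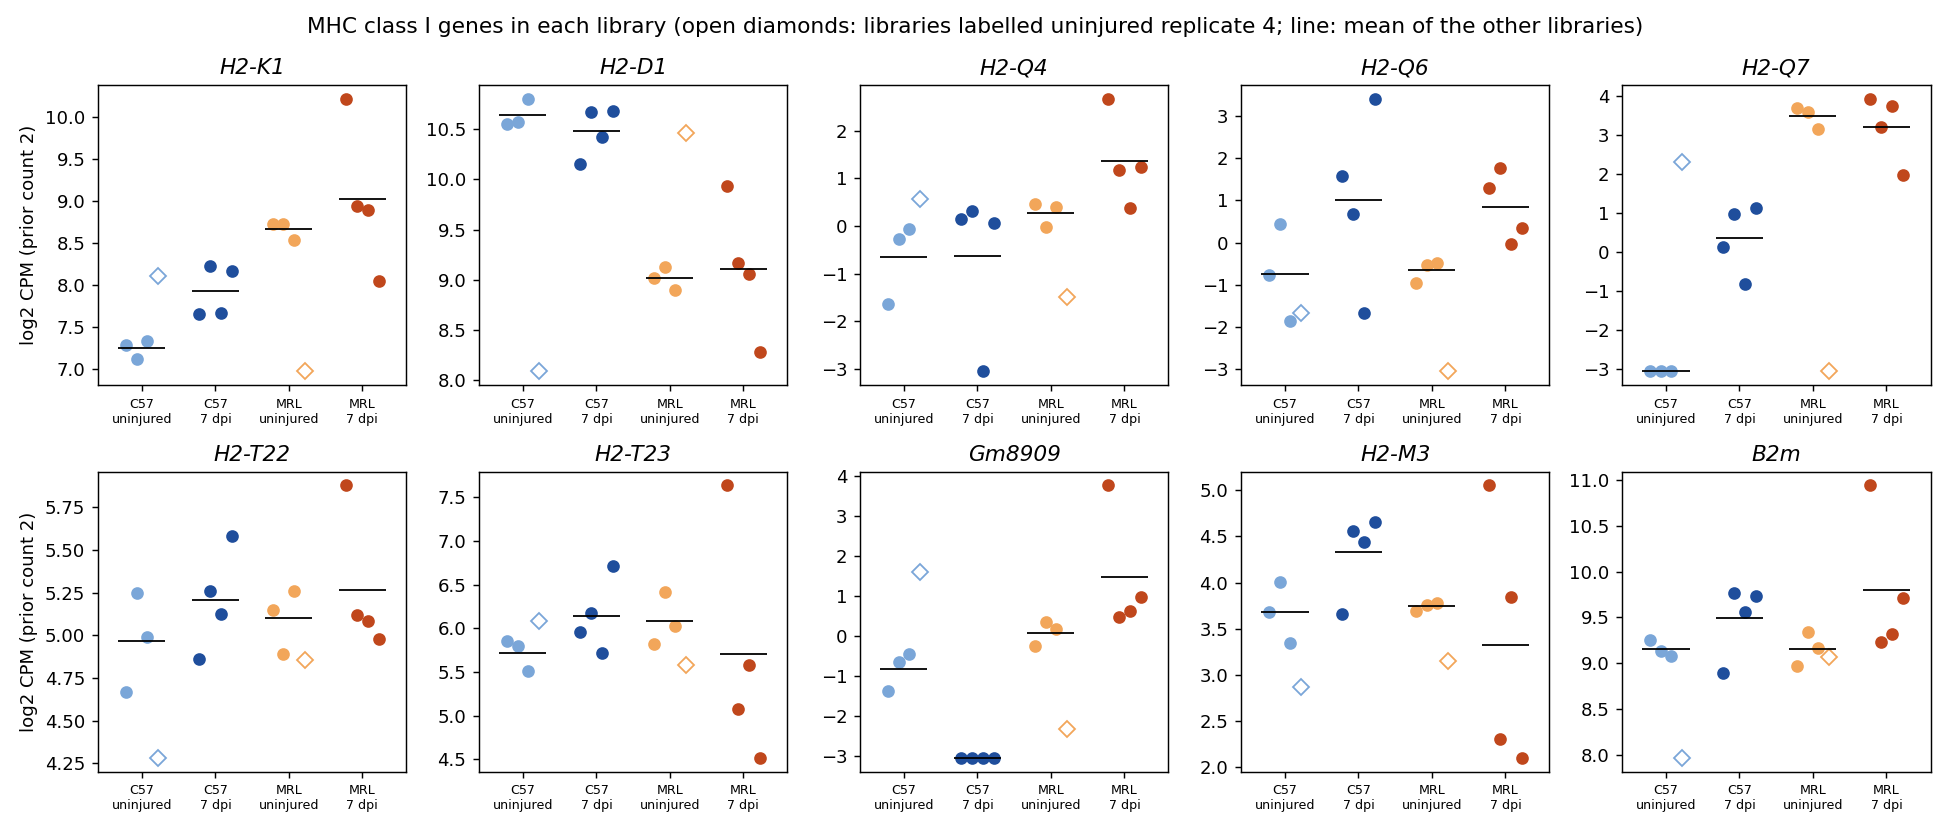
Level of each MHC class I gene in each library, as log2 CPM with a prior count of 2, for the 4 groups. Open diamonds are the libraries labelled uninjured replicate 4 and the line is the mean of the other libraries. Apart from the diamonds, H2-D1 is lower in every MRL than in every C57 library and H2-K1 is higher in uninjured MRL than in uninjured C57 libraries, while at 7 dpi MRL replicate 4 lies among the C57 values of H2-K1. Gm8909 is at its floor in all 4 injured C57 libraries.

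At 7 dpi the group means had the order of uninjured replicates 1 to 3. Injured C57 tendons had 201, 299, 202 and 286 CPM of H2-K1 and injured MRL tendons 1189, 490, 472 and 265 CPM, so replicate 4 of the injured MRL tendons fell among the C57 values. H2-D1 was at 1139, 1628, 1369 and 1644 CPM in injured C57 and at 976, 576, 534 and 311 CPM in injured MRL tendons, with no overlap. The log2 fold change (MRL minus C57) was -1.30 ± 0.32 for H2-D1 (edgeR adjusted p = 0.0512) and 1.25 ± 0.40 for H2-K1 (edgeR adjusted p = 0.115). In edgeR 0 of 8 members tested passed the call, against 3.43% of all genes, with 2 of 8 at an unadjusted p under 0.05, as were 21.2% of all genes. DESeq2, which called 7.91% of genes here, called both, H2-D1 with an adjusted p of 0.000807 and H2-K1 with 0.0164. H2-D1 lay at the threshold. It also passed with total-count scaling (adjusted p = 0.0395) and without injured MRL replicate 1 (adjusted p = 0.0258), whereas H2-K1 passed without injured MRL replicate 4 (adjusted p = 0.048).

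The balance of the classical chains, as the ratio of H2-D1 to H2-K1 counts within a library, does not depend on depth or scaling. It ran from 9.69 to 11.1 in uninjured C57 replicates 1 to 3 and from 1.23 to 1.33 in uninjured MRL replicates 1 to 3. The libraries labelled replicate 4 had 0.988 (C57) and 11.3 (MRL). At 7 dpi the ratio was 5.45 to 6.79 in C57 and 0.821 to 1.18 in MRL tendons. With the replicate 4 libraries set aside the strains did not overlap at either time, and within each strain the injured libraries lay below the uninjured ones. The ratio shows unequal change of the pair, not which of them changed. With all libraries H2-K1 made up 16.7% ± 17.1 of heavy-chain counts in uninjured C57 and 30.8% ± 15.4 in uninjured MRL tendons (SD, n = 4). It made up 8.18% ± 0.58 (SD, n = 3) in uninjured C57 tendons without replicate 4, 13.5% ± 1.05 (SD, n = 4) in injured C57, 38.4% ± 1.28 (SD, n = 3) in uninjured MRL without replicate 4 and 43.4% ± 2.93 (SD, n = 4) in injured MRL tendons.

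**Figure D2:**
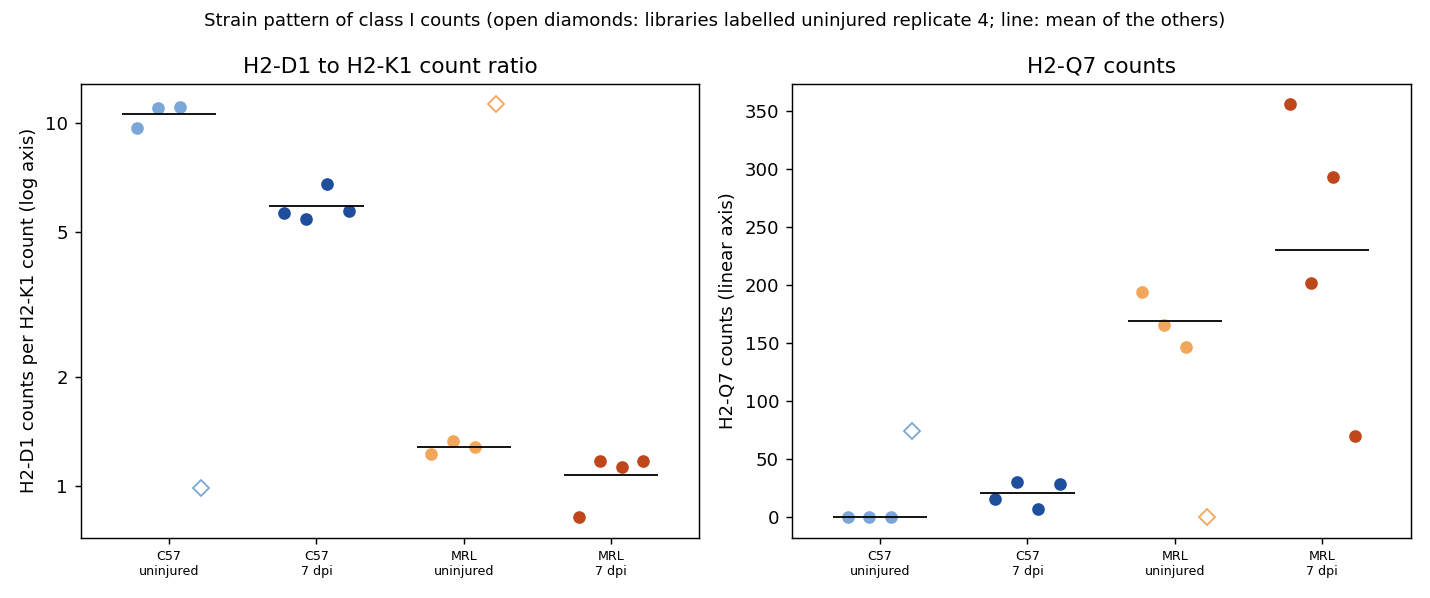
Left, counts of H2-D1 per count of H2-K1 in each library on a log axis; right, counts of H2-Q7 on a linear axis. Open diamonds are the libraries labelled uninjured replicate 4 and lines are means of the others. The ratio is 5.45 or more in C57 and 1.33 or less in MRL libraries apart from the diamonds, which are crossed.

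Neither classical chain passed the call after injury in either strain. In C57 tendons the log2 fold change of H2-K1 (injured minus uninjured) was 0.38 ± 0.27 with all libraries (edgeR adjusted p = 0.539). It was 0.65 ± 0.18 without both replicate 4 libraries (edgeR adjusted p = 0.0754), where all 4 injured libraries lay above all 3 uninjured ones. H2-D1 gave 0.13 ± 0.48 (adjusted p = 0.93) and, without replicate 4, -0.20 ± 0.18 (edgeR adjusted p = 0.572). In MRL tendons H2-K1 gave 0.84 ± 0.46 (adjusted p = 0.267) and H2-D1 -0.33 ± 0.41 (edgeR adjusted p = 0.639). Without replicate 4 these became 0.58 ± 0.42 and 0.21 ± 0.32, and without injured MRL replicate 1 as well H2-K1 came to -0.0087.

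B2m, the light chain common to all class I molecules, did not separate the uninjured strains. It stood at 608, 559 and 540 CPM in uninjured C57 replicates 1 to 3, with 249 CPM in the library labelled replicate 4, and at 501, 647, 573 and 536 CPM in uninjured MRL tendons. The log2 fold change between uninjured strains was 0.20 ± 0.26 with all libraries (edgeR adjusted p = 0.861). It was 0.00 ± 0.11 without both replicate 4 libraries (edgeR adjusted p = 0.998). At 7 dpi B2m was at 473, 870, 755 and 854 CPM in C57 and at 1968, 602, 637 and 841 CPM in MRL tendons. Injured MRL replicate 1 stood far above the rest of its group. The change after injury was 0.54 ± 0.31 in C57 (edgeR adjusted p = 0.444) and 0.83 ± 0.35 in MRL (edgeR adjusted p = 0.147), and the difference between these responses was 0.24 ± 0.50 (edgeR adjusted p = 0.899). With both replicate 4 libraries left out the 3 values were 0.32 ± 0.21, 0.82 ± 0.40 and 0.43 ± 0.48, all uncalled. Without injured MRL replicate 1 the MRL value was 0.27 (edgeR adjusted p = 0.389).

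The proportion of heavy chains to light chain is given as a description. The 9 heavy-chain genes summed to 1854 ± 159 CPM in uninjured C57 tendons and to 1053 ± 74.2 CPM in uninjured MRL tendons (SD, n = 3, without replicate 4), a log2 fold change of -0.83 ± 0.11 for the sum. With all libraries it was -0.39 ± 0.34. At 7 dpi the sums were 1829 ± 321 CPM in C57 and 1352 ± 795 CPM in MRL tendons (SD, n = 4), and the log2 fold change was -0.47 ± 0.36. Heavy-chain CPM per CPM of B2m was 3.28 ± 0.46 in uninjured C57 and 1.85 ± 0.23 in uninjured MRL tendons without replicate 4 (SD, n = 3), and 3.11 ± 0.50 and 2.14 ± 0.62 with all libraries (SD, n = 4). It was 2.54 ± 0.37 in injured C57 and 1.43 ± 0.52 in injured MRL tendons (SD, n = 4). A loss of MRL heavy-chain reads in mapping and a lower RNA level cannot be told apart in these sums.

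**Figure D3:**
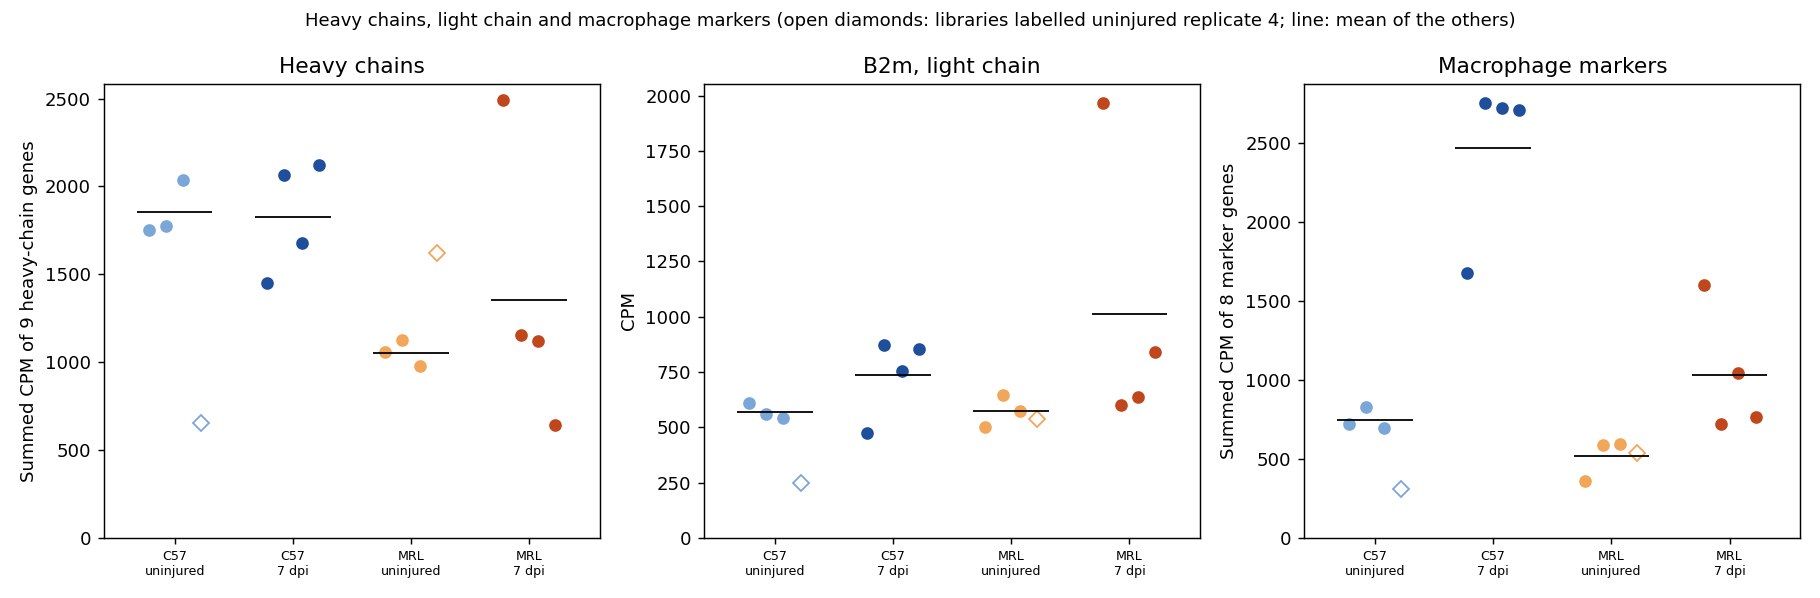
Summed CPM of the 9 heavy-chain genes, CPM of B2m and summed CPM of 8 macrophage markers in each library, on linear axes from 0. Open diamonds are the libraries labelled uninjured replicate 4 and lines are means of the others. Injured MRL replicate 1 is the highest of its group in all 3 panels, at 2493, 1968 and 1604 CPM.

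Per length of annotated exons, B2m and H2-D1 led in C57 tendons. In uninjured C57 tendons without replicate 4, B2m was at 662 ± 40.9 CPM per kb and H2-D1 at 622 ± 61.9 CPM per kb (SD, n = 3), and their ranges overlapped. H2-K1 followed at 51.6 CPM per kb, H2-T23 at 18.3, H2-T22 at 9.27 and H2-M3 at 8.97 CPM per kb, of which H2-T22 and H2-M3 overlapped. The Qa genes and Gm8909 were all at or below a mean of 0.301 CPM per kb. With all 4 uninjured C57 libraries B2m was at 569 ± 189, H2-D1 at 493 ± 263 and H2-K1 at 62.1 ± 21.3 CPM per kb (SD, n = 4), the library labelled replicate 4 took Gm8909 to 1.90 and H2-Q7 to 1.13 CPM per kb, and the first 6 genes kept their order. In uninjured MRL tendons without replicate 4 the order was B2m (667 CPM per kb), H2-D1 (201), H2-K1 (138), H2-T23 (23.8), H2-T22 (8.66 to 11.2), H2-M3 (9.23) and H2-Q7 (2.61), and again H2-T22 and H2-M3 overlapped. With all 4 uninjured MRL libraries H2-D1 was at 287 ± 173, H2-K1 at 114 ± 48.3 and H2-Q7 at 1.96 ± 1.37 CPM per kb (SD, n = 4). At 7 dpi H2-D1 and H2-K1 no longer separated in MRL tendons, at 232 ± 107 and 206 ± 137 CPM per kb (SD, n = 4).

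H2-Q7 was chosen for its strain pattern, and its strain values are a description. It had 0 counts in uninjured C57 replicates 1 to 3, 74 counts in the library labelled replicate 4, and 7 to 30 counts in injured C57 tendons. Uninjured MRL replicates 1 to 3 had 147 to 194 counts, the library labelled replicate 4 had 0, and injured MRL tendons had 70 to 356 counts. With all libraries the log2 fold change between uninjured strains (MRL minus C57) was 2.72 ± 1.92, and the ranges overlapped. Without both replicate 4 libraries the uninjured MRL level of 11.1 CPM was at least 53.6-fold higher than C57, with the C57 libraries set at 3 counts each. Injured MRL tendons held 3.83 to 15.1 CPM and injured C57 tendons 0.451 to 2.06 CPM. After injury in C57 tendons, H2-Q7 was at least 6.44-fold higher without both replicate 4 libraries, whereas with all libraries the log2 fold change was 0.08 ± 1.69. In MRL tendons it was 0.29 ± 0.93 with all libraries and -0.11 ± 0.45 without replicate 4. These values draw on counts that chose the gene and are a description too.

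The other Qa genes were at low counts throughout. H2-Q4 had 3 to 21 counts in every uninjured library, 0 to 18 in injured C57 and 26 to 147 in injured MRL tendons. Scaled for depth, H2-Q4 held 1.17 to 6.25 CPM in injured and 0.237 to 1.25 CPM in uninjured MRL tendons, which overlap. Its log2 fold change was 1.72 ± 0.79 after injury in MRL (edgeR adjusted p = 0.184) and 1.92 ± 1.00 between the injured strains (edgeR adjusted p = 0.303). In C57 it was -0.10 ± 1.09, and without replicate 4 the level after injury was 2.68-fold in MRL (edgeR adjusted p = 0.286) and the log2 fold change 0.32 ± 1.18 in C57. Without injured MRL replicate 1 the log2 fold change was 1.03 after injury in MRL and 1.31 between the injured strains. H2-Q6, a further Qa-2 gene, had 0 to 19 counts in uninjured libraries, 47, 24, 3 and 148 counts in injured C57 and 55, 72, 19 and 21 counts in injured MRL tendons. All 4 injured MRL libraries lay above all 4 uninjured ones. Its log2 fold change was 2.24 ± 0.99 in MRL (edgeR adjusted p = 0.166) and 2.81 ± 1.19 in C57 (edgeR adjusted p = 0.306), and 1.86 ± 0.85 and 2.54 ± 1.23 without replicate 4. The C57 value was 1.55 without injured C57 replicate 4 (edgeR adjusted p = 0.637).

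Gm8909, also chosen for its strain pattern, had 0 counts in all 4 injured C57 libraries. It had 320, 28, 32 and 34 counts in injured MRL libraries, so replicate 1 alone held most of the group's reads. Uninjured C57 replicates 1 to 3 had 4, 8 and 8 counts and the library labelled replicate 4 had 45. Uninjured MRL replicates 1 to 3 had 11, 16 and 17 counts, and the library labelled replicate 4 had 1. At 7 dpi MRL tendons were at least 23.4-fold higher than C57, with injured C57 libraries set at 3 counts each, and without injured MRL replicate 1 this bound was 7.85-fold. Within C57, injured tendons were at least 5.57-fold lower than uninjured ones, a bound of 2.4-fold without replicate 4, and the gene did not enter that fit because its counts were too low. Within MRL the log2 fold change after injury was 2.59 ± 1.01, and 2.23 ± 1.00 without replicate 4, again a description. It was 1.01 without injured MRL replicate 1, and 0.64 without that library and both replicate 4 libraries. All injured MRL libraries lay above all uninjured MRL libraries, and all injured C57 libraries below all uninjured C57 libraries.

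The nonclassical members with dedicated ligands showed no call in any comparison. H2-T23, which encodes Qa-1 and is read by CD94/NKG2 receptors, was at 45.3 to 67.7 CPM in uninjured C57, 52.3 to 105 CPM in injured C57 and 47.6 to 85.1 CPM in uninjured MRL tendons. Injured MRL tendons had 199, 33.6, 47.8 and 22.7 CPM, so replicate 1 was the highest and replicates 2 and 4 were the lowest of all 16 libraries. The log2 fold change after injury in MRL was 0.24 ± 0.59, uncalled, with 0.14 ± 0.65 without uninjured replicate 4 and -0.90 without injured MRL replicate 1. H2-M3, which presents formylated peptides, was likewise spread, with 33.1, 4.80, 14.2 and 4.16 CPM in injured MRL tendons. In C57 tendons H2-M3 was at 110 to 248 counts uninjured and 204 to 381 counts at 7 dpi, a log2 fold change of 0.79 ± 0.33 (unadjusted p = 0.0392 and adjusted p = 0.301 in edgeR), and 0.63 ± 0.30 without replicate 4 (unadjusted p = 0.0626 in edgeR). H2-T22, a ligand of some gamma delta T cell receptors, ranged from 19.3 to 58.7 CPM over all libraries, and its log2 fold changes lay between 0.05 and 0.34 in the 4 pairwise comparisons with all libraries.

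**Figure D4:**
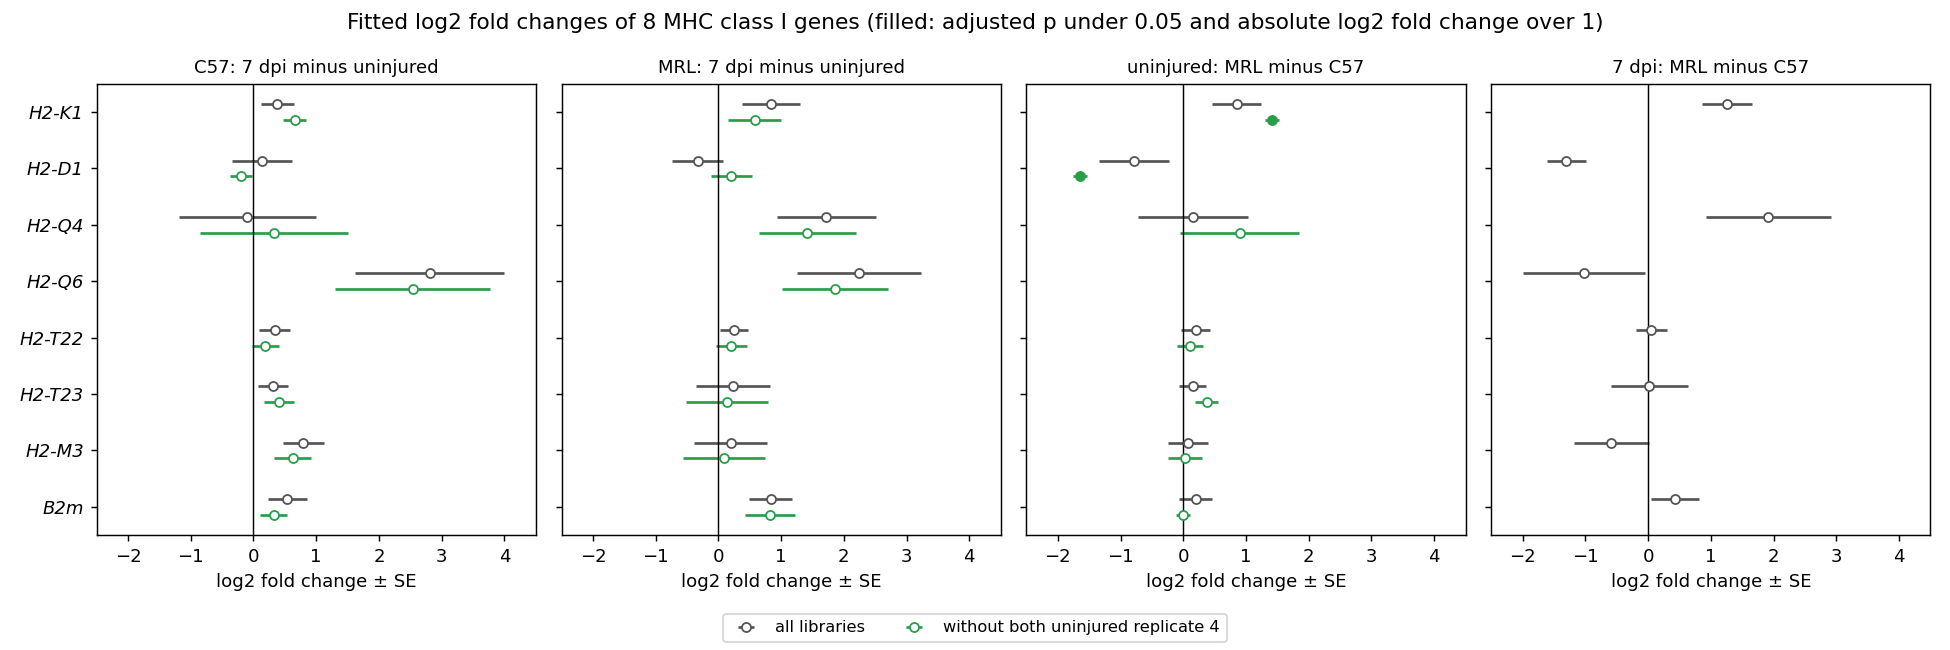
Log2 fold change with its SE for 8 members in the 4 pairwise comparisons, with all libraries (grey) and without both libraries labelled uninjured replicate 4 (green). Filled points passed the call, which only H2-K1 and H2-D1 between uninjured strains did among these 8. H2-Q7 and Gm8909 are not drawn because they were chosen for their strain pattern, and H2-Q6 was too low for the uninjured comparison.

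H2-Q7 and Gm8909 were chosen from these counts and are left out of the counts of calls after injury. In C57 tendons 0 of the other 8 members were called with all libraries, against 1.07% of genes, and 2 of 8 had an unadjusted p under 0.05, as did 15.3% of genes. With both replicate 4 libraries left out it was again 0 of 8, against 5.01%, with 1 of 8 at an unadjusted p under 0.05, against 21% of genes. In MRL tendons 0 of these 8 were called with all libraries, against 7.41% of genes, and 2 of 8 had an unadjusted p under 0.05, as did 28.3% of genes. Without replicate 4 it was 0 of 8, against 6.11%, with 0 at an unadjusted p under 0.05, against 25.3% of genes. DESeq2 called 0 members in either strain with all libraries, against 5.24% of genes in C57 and 10.9% in MRL tendons. The median log2 fold change of these 8 was 0.36 in C57 and 0.54 in MRL tendons with all libraries, beside -0.05 and -0.03 over all genes tested. Without replicate 4 the medians were 0.37 and 0.39, beside -0.0064 and -0.0085. The MRL median leaned on injured MRL replicate 1: without that library it was 0.12, beside -0.06 over all genes, and 4 of the 8 lay below 0, and without it and replicate 4 it was -0.039 with 5 of 8 below 0. For the difference between strains in the response to injury, 0 of 8 members tested passed, as did 0% of 15947 genes. Of the 8, 0 had an unadjusted p under 0.05, against 12.2% of genes. Without replicate 4, again 0 of 8 passed, as did 0% of 16391 genes. DESeq2 called 0 members for this difference, against 0.84% of genes.

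The peptide supply and loading machinery was a list of 13 genes. In C57 tendons 1 of 13 was called with all libraries, against 1.07% of genes, Psmb8, an interferon-inducible proteasome subunit that shapes class I peptides (log2 fold change 2.35 ± 0.35, edgeR adjusted p = 0.0217). Without replicate 4 the count was 3 of 13, against 5.01%, with Psmb9 (1.94 ± 0.47) and Psmb10 (1.08 ± 0.20) added. In MRL tendons 2 of 13 were called, both higher, against 7.41% of genes, Psmb8 (3.05 ± 0.61, edgeR adjusted p = 0.0125) and Psmb10 (1.38 ± 0.25, edgeR adjusted p = 0.00819). Psmb8 was at 2.75 to 6.34 CPM in uninjured C57, 20.3 to 32.7 CPM in injured C57, 1.84 to 5.47 CPM in uninjured MRL and 7.79 to 60.1 CPM in injured MRL tendons, with no overlap in either strain. Its response did not differ detectably between strains (0.64 ± 0.71, edgeR adjusted p = 0.775). Tap1, a subunit of the peptide transporter, gave 0.58 ± 0.42 in C57 and 1.07 ± 0.55 in MRL tendons, and Tapbp, the loading factor tapasin, gave -0.05 ± 0.25 and -0.12 ± 0.33, all uncalled. Without injured MRL replicate 1 the MRL change of Tap1 was 0.24 ± 0.43 and that of Psmb8 2.28 ± 0.51 (edgeR adjusted p = 0.0312), and without replicate 4 as well Psmb8 was uncalled (2.29 ± 0.58, edgeR adjusted p = 0.0606). With any 1 library left out, Psmb8 was called in 2 of 8 fits in C57 and 8 of 8 in MRL, and Psmb10 in 8 of 8 in MRL. Between the injured strains 1 of 13 was called, against 3.43% of genes, Calr, the chaperone calreticulin (1.01 ± 0.21 higher in MRL, edgeR adjusted p = 0.0278). The call was kept in 2 of 8 fits with 1 library left out. The median of the list was -0.05 in C57 and 0.57 in MRL tendons, and 0.14 and 0.52 without replicate 4.

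Of 15 regulators of class I transcription and interferon signalling, 13 were tested after injury. In MRL tendons 1 of 13 was called, against 7.41% of genes, Ifngr2, a chain of the interferon gamma receptor (1.62 ± 0.20, edgeR adjusted p = 0.0017). In C57 tendons 0 of 13 were called with all libraries, against 1.07%, and 1 of 13, again Ifngr2, without replicate 4, against 5.01% (1.01 ± 0.22, edgeR adjusted p = 0.0287). Nlrc5, the transactivator of class I genes, had log2 fold changes of 0.36 ± 1.37 in C57 and 2.48 ± 1.85 in MRL tendons. It had 1, 5 and 2 counts in uninjured C57 replicates 1 to 3, 100 in the library labelled replicate 4 and 5 to 74 in injured C57 tendons, so the C57 value was higher without replicate 4 (edgeR adjusted p = 0.098). In MRL the value was 3.45 ± 2.26 without replicate 4 and 1.33 ± 2.01 without injured MRL replicate 1. Injured MRL libraries had 180, 87, 0 and 0 Nlrc5 counts and uninjured MRL libraries 0, 11, 0 and 16. Irf1, an interferon-induced transcription factor, gave 0.66 ± 0.50 and 0.47 ± 0.33, and neither was called.

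Of 25 other class I and class I-like genes listed, 21 were in the table and 10 were tested between injured strains, where 2 were called, against 3.43% of all genes. Both passed the count filter only through MRL tendons, where they are high, so their calls are a description. H2-Q2 was at 0 to 3 counts in injured C57 and 79 to 324 counts in injured MRL tendons. H2-Q10, which encodes a secreted class I chain, was at 0 to 8 counts and 41 to 194 counts in the same groups. The call held in 8 of 8 fits with 1 library left out for H2-Q2 and in 1 of 8 for H2-Q10. Between uninjured strains 0 of 8 tested were called with all libraries, against 0% of genes. Without replicate 4 it was 2 of 8, H2-Q2 and H2-Q1, against 3.48%. H2-Q2 and H2-Q1 entered that fit through MRL libraries alone, and their calls are a description too. The haplotype caution applies to them as to the members. Mr1, which presents vitamin B metabolites and lies outside the H2 complex, fell by 1.05 ± 0.24 on the log2 scale in MRL tendons after injury (edgeR adjusted p = 0.0206), a call kept in 4 of 8 such fits.

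On the receiving side, 10 of 12 listed receptors of class I were in the table and 2 had enough counts to be tested after injury in each strain. Both were called higher in both strains, against 1.07% of genes in C57 and 7.41% in MRL tendons: Pirb, an inhibitory receptor of myeloid cells that binds class I, and Lilrb4a, a related inhibitory receptor. With both replicate 4 libraries left out 3 of 4 tested were called in C57, against 5.01%, and 3 of 3 in MRL, against 6.11%. The additions were Klrk1 in C57 and Klra2 in MRL tendons. Klrk1 had 0 counts in uninjured replicates 1 to 3 and 7 to 33 at 7 dpi. Klra2 had 0 counts uninjured and 6 to 34 at 7 dpi. Both additions passed the count filter only through injured libraries, so their calls are a description and add no support. Pirb gave 2.55 ± 0.48 in C57 (edgeR adjusted p = 0.0467) and 1.63 ± 0.43 in MRL tendons (edgeR adjusted p = 0.0365), and was lower in injured MRL than in injured C57 tendons (-1.64 ± 0.32, edgeR adjusted p = 0.0224). With 1 library left out, Pirb kept its call in 1 of 8 fits in C57, 3 of 8 in MRL and 2 of 8 between injured strains, and Lilrb4a in 2 of 8 in C57 and 8 of 8 in MRL. Cd8a, the coreceptor of class I-restricted T cells, had at most 6 counts in any library, and the 7 T and NK cell markers summed to at most 10.6 CPM. The 8 macrophage markers summed to 311 to 829 CPM in uninjured C57, 1679 to 2756 CPM in injured C57, 362 to 595 CPM in uninjured MRL and 723 to 1604 CPM in injured MRL tendons, and none of the 8 was at 0 in any library. In C57 tendons 5 of these 8 were called higher after injury, against 1.07% of genes, and in MRL tendons 3 of 8, against 7.41%. Without both replicate 4 libraries it was 8 of 8, against 5.01%, and 2 of 8, against 6.11%. Leaving out any single library gave 0 to 8 in C57 and 2 to 4 in MRL tendons. Of 6 general leukocyte markers, 4 were called higher in C57, against 1.07% of genes, and 6 in MRL tendons, against 7.41%. Without both replicate 4 libraries all 6 were called in each strain, against 5.01% and 6.11%. Injured MRL replicate 1, which was highest for H2-K1, H2-D1, H2-T22, H2-T23, H2-M3, Gm8909 and B2m in its group, also had the most macrophage counts of its group. The summed level of the 6 leukocyte markers was highest in injured MRL replicate 4, at 815 CPM against 716 CPM in replicate 1, and replicate 4 was the lowest of the group for H2-K1 and H2-D1. The part of cell composition in the class I values was not tested.

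Some genes followed a member across libraries. By Pearson correlation of log2 CPM over the 16 libraries, which share depth, strain and injury as sources of variation, H2-K1 was most like Gm10499 (r = 0.921), Crispld2 (0.885) and Spon2 (0.878). Gm10499 lies on chromosome 17 as well. B2m was most like Zbp1, an interferon-inducible nucleic acid sensor (r = 0.879), Ntpcr (0.876) and Ywhah (0.874). H2-Q7 was most like Btla (0.929), Rnaset2a (0.913) and Cdca7l (0.903), and Gm8909 most like Leprotl1 (0.864), Rab35 (0.858) and Gm15975 (0.856). Without both replicate 4 libraries the r of these 12 pairs lay between 0.788 and 0.931.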

How the data were processed

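Gene-level read counts for 16 libraries were used as deposited by the authors, in 1 table of 49568 gene symbols. Per the submitters' processing notes the authors used Trimmomatic 0.36, STAR 2.5.2b, featureCounts of Subread 1.5.0p3 and DESeq2 1.14.1 with build GRCm38.p5. Strand, multi-mapping and annotation settings are not given in the sources used here. The labels name a TruSeq kit, while the methods name pre-amplified cDNA, so counts of low genes may carry amplification noise. All 16 count columns were mapped to samples, and 0 columns were left out.

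The members and gene lists were chosen with earlier results of these data known. Named genes were all members, list genes that passed the call, 10 further pathway and cell genes whatever their values (1 is not reported here), and the 3 genes most correlated with each of H2-K1, B2m, H2-Q7 and Gm8909. Counts were tested with edgeR 4.0.16 (filterByExpr, TMM, robust quasi-likelihood) in R 4.3.3, within the groups compared, with Benjamini-Hochberg adjustment over all genes tested. A call needed an adjusted p under 0.05 together with a log2 fold change beyond 1 either way (for the difference in response, the adjusted p alone). Fold bounds against a group at 0 used 3 counts per library, which covers counting error only. DESeq2 1.42.0, other scalings and filters, 1 fit of all libraries and leaving out libraries were the alternatives. Scripts were tested on simulated counts. Replicate numbers did not pair the uninjured samples, and injured libraries, whose labels give none, were numbered in the order of their records. Sequence windows came from GENCODE M21 transcripts and RefSeq promoters, which matched 10 of 10 members.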

Additional observations from a re-analysis of the deposited data

Results flagged for a closer look

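Of 39 groups of 4 libraries with any spread (1 gene in 1 group), 10 held a library that stood far from the other 3 by Dixon's ratio, where chance gives about 1 in 20. The libraries labelled uninjured replicate 4 accounted for 7 of these. The library labelled uninjured C57 replicate 4 was the lowest of its group for H2-D1 (272 CPM) and B2m (249 CPM) and the highest for H2-Q7 (4.81 CPM). The library labelled uninjured MRL replicate 4 was the lowest for H2-K1 (125 CPM), H2-Q7 (0 CPM) and H2-M3 (8.77 CPM) and the highest for H2-D1 (1411 CPM). Injured MRL replicate 1 was the highest for H2-T22 (58.7 CPM) and Gm8909 (13.6 CPM), and injured C57 replicate 3 was the lowest for H2-Q4 (0 CPM).

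Gm8909 counts lay on opposite sides of the uninjured values after injury. All injured C57 libraries were at 0 and below all uninjured C57 libraries, while all injured MRL libraries, with a mean of 4.54 CPM, were above all uninjured MRL libraries. This difference was not tested, since the gene was chosen for its strain pattern.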

How the results depend on the processing

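Limits: haplotype and RNA level cannot be told apart for heavy chains between strains, the libraries labelled uninjured replicate 4 decide the uninjured comparison, and Qa genes and Gm8909 rest on few counts. Of the alternative values, 655 kept their direction and side of the threshold, 49 reversed and 10 newly passed; every reversed value was uncalled with all libraries. Causes were not tested.

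With all 16 libraries in 1 fit, 1 member (Gm8909, lower) was called after injury in C57, against 2.3% of genes. Without both libraries labelled uninjured replicate 4, 1 (H2-Q7) was called there, against 5.01%, and 2 between uninjured strains, against 3.48%. Gm8909 and H2-Q7 were chosen on these counts, so their calls show nothing further. Between injured strains DESeq2 called 2, against 7.91% of genes. Total counts, no low-count filter and at least 10 counts in every library called 1 each (H2-D1), against 3.8%, 1.85% and 3.05%. Leaving out 1 library at a time gave 0 to 1 members after injury in C57, against 0.0667% to 5.01% of genes. Between injured strains it gave 0 to 1, against 1.52% to 3.19%. No-filter fits and the replicate block left the uninjured comparison at 0 called, and same-numbered uninjured libraries did not deviate together (r from -0.238 to -0.0294).

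Total counts turned H2-Q4 after injury in C57 to 0.047 and, between injured strains, H2-T22 to -0.079 and H2-T23 to -0.088. Without both replicate 4 libraries, tested values turned for H2-D1 (-0.20) and H2-Q4 (0.32) after injury in C57, H2-D1 (0.21) and H2-Q7 (-0.11) after injury in MRL, and H2-K1 (-0.14) and H2-D1 (0.35) in the difference of responses. As descriptions, Gm8909 between uninjured strains went from -0.58 to 1.02, and H2-Q7 in the difference of responses turned below 0 from 0.15, against libraries at 0 counts, which gives no size. With injured C57 replicate 1 left out as well, the C57 values were -0.060 and 0.20 and the differences of responses -0.23 and 0.25 (comparisons of only uninjured or only MRL tendons do not hold that library), and between injured strains H2-T22 came to -0.047 and H2-T23 to -0.039. With injured MRL replicate 1 left out instead, MRL values after injury were -0.0087 (H2-K1), -0.38 (H2-Q7), -0.069 (H2-T22), -1.01 (H2-T23) and -0.80 (H2-M3).

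Leaving out 1 library at a time gave these ranges. After injury in C57, H2-D1 -0.20 to 0.35, H2-Q4 -0.41 to 0.34 and H2-Q7 -0.33 to 7.32, the last a fitted value against libraries at 0 counts, for which the bound is at least 6.44-fold. After injury in MRL, H2-D1 -0.68 to 0.21, H2-Q7 -0.11 to 0.57, H2-T22 -0.017 to 0.34, H2-T23 -0.90 to 0.54 and H2-M3 -0.68 to 0.50. Between uninjured strains, H2-Q4 -0.15 to 0.59, H2-T23 -0.00026 to 0.28, H2-M3 -0.090 to 0.28 and B2m -0.016 to 0.33. Between injured strains, H2-Q6 -1.42 to 0.27, H2-T22 -0.13 to 0.19, H2-T23 -1.04 to 0.36 and B2m -0.052 to 0.65. In the difference of responses, H2-K1 -0.16 to 0.64, H2-D1 -0.85 to 0.013, H2-Q6 -1.50 to 0.69, H2-T22 -0.39 to 0.0090, H2-T23 -1.25 to 0.17 and B2m -0.30 to 0.45. The lows without injured MRL replicate 1 include H2-T23 and H2-M3 after injury in MRL and B2m between injured strains.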
